A study of Mus musculus with 22 samples.

Results

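The genes described here are 10 that mark megakaryocytes, the large bone marrow and fetal liver cells that shed platelets, and the platelets themselves. They were chosen by gene name: Pf4, Ppbp, Itga2b, Itgb3, Gp1ba, Gp1bb, Gp9, Vwf, Fli1 and Treml1, out of 52459 genes in the gene tables. All 10 are listed in the bulk, whole-liver and H3K4me3 tables and 8 of them in the single-cell table, where Ppbp and Gp1ba have no row. All samples came from E14.5 mouse fetal liver, of Vav-Cre Mettl3fl/fl animals, called KO, and of Mettl3fl/fl animals without Vav-Cre, called WT. Both genotypes therefore carried the floxed gene, and Vav-Cre acts in blood cells and in part of the endothelium, so most other liver cells of KO embryos kept an intact gene. Mettl3 makes the catalytic subunit of the enzyme that writes N6-methyladenosine into messenger RNA. The study addresses the role of that mark in blood formation. Sorted Lin-Sca-1+c-Kit+ cells (LSK cells, which hold blood stem cells and early progenitors) gave polyadenylated bulk RNA from 3 KO and 3 WT samples, H3K4me3 CUT&RUN from 2 KO and 2 WT samples and single-cell RNA from 2 KO and 2 WT samples. Whole liver gave total RNA, called INPUT, and RNA pulled down with J2, an antibody against double-stranded RNA, from 2 KO and 2 WT samples each.

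Megakaryocytes arise from stem and progenitor cells under the hormone thrombopoietin, and build the receptors and granules that platelets later carry. Pf4 and Ppbp encode chemokines stored in platelet granules. Itga2b and Itgb3 encode the 2 chains of the fibrinogen receptor, Gp1ba, Gp1bb and Gp9 encode subunits of the receptor for von Willebrand factor, and Vwf encodes that ligand, which endothelial cells also make. Treml1 encodes a receptor of platelet granule membranes, and Fli1 an ETS-family transcription factor of megakaryocytes that is also active in stem cells and endothelium. Itga2b and Vwf are in addition known to be transcribed in stem cells, so a transcript of these genes in LSK cells is no proof of a megakaryocyte.

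The 250 bases before the transcription start are shown for 3 genes: Itga2b, where both RNA and H3K4me3 were higher in KO LSK cells, Gp1bb, whose RNA had the largest fold change of the 10 in whole liver, and Gp1ba, the promoter with matches to both motifs searched. The sequences are RefSeq's for GRCm38.p6, written in the direction of transcription, and capitals mark matches to a GATA motif (AGATAA or AGATAG and, with T first, TGATAA or TGATAG) or an ETS motif (CCGGAA or CAGGAA) on either strand.
Itga2b (chr11:102469884-102470133, minus strand): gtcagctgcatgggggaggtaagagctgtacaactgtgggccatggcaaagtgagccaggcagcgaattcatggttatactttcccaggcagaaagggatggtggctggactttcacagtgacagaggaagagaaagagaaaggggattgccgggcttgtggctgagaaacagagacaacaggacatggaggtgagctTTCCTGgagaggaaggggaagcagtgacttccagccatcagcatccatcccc
Gp1bb (chr16:18622404-18622653, minus strand): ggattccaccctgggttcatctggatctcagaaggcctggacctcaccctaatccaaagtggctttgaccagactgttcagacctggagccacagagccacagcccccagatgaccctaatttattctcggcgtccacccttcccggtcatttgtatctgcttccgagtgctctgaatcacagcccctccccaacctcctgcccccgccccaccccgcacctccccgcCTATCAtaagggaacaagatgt
Gp1ba (chr11:70638872-70639121, plus strand): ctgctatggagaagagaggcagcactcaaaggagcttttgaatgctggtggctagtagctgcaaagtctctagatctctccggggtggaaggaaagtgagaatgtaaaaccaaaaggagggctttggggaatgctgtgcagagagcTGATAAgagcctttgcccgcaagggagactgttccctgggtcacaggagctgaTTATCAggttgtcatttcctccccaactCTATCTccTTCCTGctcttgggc
GATA and ETS factors are the regulators with which megakaryocyte promoters are classically associated. Of the 7 genes with a RefSeq promoter entry, 2 (Gp1ba and Gp1bb) held a GATA match and 4 (Gp1ba, Itga2b, Ppbp and Treml1) an ETS match, while Pf4 and Gp9 held neither. Over all 32851 promoters of that table, 26.5% held a GATA match and 35.1% an ETS match in the same 250 bases. In Gp1ba the GATA matches lay 104, 51 and 23 bases before the start and the ETS match 15 bases before it, counted to the first base of each match. In Itga2b the single match, to the ETS motif, began 52 bases before the start.

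Bulk libraries held 27732838 to 40641081 counts in KO and 20088100 to 35924983 in WT, whole-liver INPUT libraries 3407590 to 4120864 in KO and 3100910 to 3178981 in WT. Mettl3 itself had 4.13, 6.31 and 5.53 CPM (counts scaled to the library total, with TMM factors) in KO bulk libraries, against 43.0, 43.0 and 33.2 CPM in WT bulk libraries, and fell by 2.91 on the log2 scale (SE 0.17; p 1.57e-05 after Benjamini-Hochberg adjustment in the quasi-likelihood test of edgeR). In INPUT it had 6.70 and 26.9 CPM in libraries labelled KO, against 29.4 and 24.9 CPM in WT, so that KO replicate 2 lay within the WT range. In single cells Mettl3 had 64.3 and 52.2 CPM in the libraries labelled KO, against 36.3 and 33.3 CPM in WT, which goes against the label; which exons are deleted is not stated, so reads outside them would check nothing. Both single-cell KO libraries held Xist and no Ddx3y counts, and both WT libraries the reverse, and the sexes of those embryos cannot be told apart from their genotypes. In the bulk set KO replicate 1 held no Ddx3y counts and WT replicate 3 had 3 Xist counts, while the other 4 libraries held both.

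In LSK bulk RNA the 10 genes did not move as one group. Fli1 and the fibrinogen receptor chain Itga2b were higher in KO cells, Gp9 and Vwf were lower, and the other 6 did not pass the test. That is 4 of 10 genes called at an adjusted p under 0.05 by edgeR, beside 44.2% of the 14405 genes tested (21.6% higher and 22.6% lower), so the share called was near that of all genes. The median log2 fold change of the 10 genes was 0.02, against -0.02 over all genes tested. Markers of other cells moved in the same comparison: 7 of 8 granulocyte progenitor genes were higher, with sums of 5450 to 5810 CPM in KO and 2532 to 2733 CPM in WT, and so were 5 of 6 tested mast cell and basophil genes (135 to 157 CPM in KO and 97.6 to 107 CPM in WT). All 9 tested lymphoid genes (376 to 413 CPM in KO, 831 to 1002 CPM in WT), 7 dendritic genes (121 to 147 CPM in KO, 216 to 332 CPM in WT) and 5 tested stromal genes (25.1 to 30.7 CPM in KO, 40.2 to 49.7 CPM in WT) were lower, as were 5 of 10 erythroid genes. Dntt was at 0 in 2 KO and 3 WT libraries, Fcer1a in 3 KO and 2 WT libraries and Cma1 in 3 WT libraries. The part of these cells in the results below was not tested.

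Fli1 (ENSMUSG00000016087, chromosome 9) had 176, 181 and 187 CPM in KO libraries, against 111, 116 and 101 CPM in WT libraries. The groups did not overlap, and Fli1 averaged 181 ± 5.34 CPM in KO and 109 ± 7.62 CPM in WT (SD, n = 3 each). Its log2 fold change was 0.73 (SE 0.07, edgeR adjusted p 9.31e-05), and the call held in all 11 alternative fits, including those without each library in turn.

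Itga2b (ENSMUSG00000034664, chromosome 11) had 35.9, 26.9 and 27.4 CPM in KO libraries, against 23.3, 13.5 and 16.7 CPM in WT libraries. Every KO library lay above every WT library, by a log2 fold change of 0.76 (SE 0.19, edgeR adjusted p 0.0118). Its partner Itgb3 (ENSMUSG00000020689, chromosome 11) had 27.1, 18.6 and 19.98 CPM in KO libraries, against 26.9, 13.5 and 10.7 CPM in WT libraries. WT replicate 1 sat at the top of the KO range, and the log2 fold change of 0.36 (SE 0.30) did not pass the test (edgeR adjusted p 0.363). Without WT replicate 1 Itgb3 was called higher, at 0.85 (edgeR adjusted p 0.0036), while without KO replicate 1 the call of Itga2b was lost (0.65, adjusted p 0.0512).

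Of the subunits of the von Willebrand receptor, Gp9 passed the test and Gp1ba and Gp1bb did not; differences between subunits were not tested. Gp9 (ENSMUSG00000030054, chromosome 6) had 4.89, 5.34 and 5.06 CPM in KO libraries, against 5.81, 8.68 and 9.50 CPM in WT libraries. The groups did not overlap, and Gp9 fell by 0.65 on the log2 scale (SE 0.18, edgeR adjusted p 0.0188). Gp1ba (ENSMUSG00000050675) had 3.40, 2.54 and 2.12 CPM in KO libraries, against 3.93, 2.53 and 1.88 CPM in WT libraries, with full overlap and a log2 fold change of -0.06 (SE 0.29). Gp1bb (ENSMUSG00000050761) had 1.59, 1.01 and 0.656 CPM in KO libraries, against 0.880, 0.539 and 0.396 CPM in WT libraries, a difference of 0.82 (SE 0.41) with an edgeR adjusted p of 0.136. The ligand gene Vwf (ENSMUSG00000001930, chromosome 6) had 11.3, 8.69 and 8.55 CPM in KO libraries, against 15.6, 15.1 and 11.04 CPM in WT libraries. KO replicate 1 lay just above WT replicate 3, and Vwf fell by 0.55 on the log2 scale (SE 0.16, edgeR adjusted p 0.0236). The Gp9 call was lost without any 1 library other than WT replicate 1 (adjusted p 0.0527 to 0.0806), and the Vwf call without KO replicate 2 or 3 or WT replicate 1 or 2 (0.052 to 0.13). Beside Vwf, 8 of 13 tested endothelial markers were lower, with summed levels of 168 to 195 CPM in KO and 237 to 317 CPM in WT; of the 15 on that list Sox17 was at 0 in 2 KO libraries and Cldn5 in 1. Of 10 markers of stem and multipotent cells 9 were lower, with sums of 461 to 536 CPM in KO and 709 to 1002 CPM in WT and none at 0. Of the endothelial list, Egfl7 and Tie1 averaged 105.9 and 58.2 CPM in WT bulk libraries, against 5.532 CPM for Cdh5. In the single-cell clusters described below, 10 genes of that list had their lowest sum in cluster 2, 115 CPM. Their highest sum was 337 CPM, in cluster 5, so every cluster had counts from the list. Such sums do not show which of its genes a cluster held. Whether the list marks separate endothelial cells in the bulk samples was not tested. The part of any cell type in the result was not tested, and in bulk samples fewer cells of a type and less RNA per cell cannot be told apart.

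The fold changes of the granule chemokine genes turned on WT replicate 1. In both genotypes replicate 1 had the highest level of Pf4, Ppbp, Itga2b, Itgb3, Gp1ba, Gp1bb, Vwf and Treml1, but not of Gp9 and Fli1. The pattern was thus not particular to the chemokine genes or to WT, and its cause was not tested. Pf4 (ENSMUSG00000029373) had 4.94, 2.43 and 3.28 CPM in KO libraries, against 9.15, 3.02 and 0.940 CPM in WT libraries. Ppbp (ENSMUSG00000029372), its neighbour on chromosome 5, had 0.655, 0.261 and 0.281 CPM in KO libraries, against 6.32, 0.620 and 0.297 CPM in WT libraries. WT replicate 1 had the highest level of both genes, and neither passed the test: Pf4 at -0.32 (SE 0.60, edgeR adjusted p 0.698) and Ppbp at -2.56 (SE 0.99, adjusted p 0.0617). Without WT replicate 1 the Ppbp difference shrank to -0.23 and that of Pf4 turned to 0.77 (edgeR adjusted p 0.754 and 0.163), while without WT replicate 2 or 3 Ppbp was called lower (-3.02 each, adjusted p 0.0452 and 0.0222). WT replicate 1 had the highest sum of the 8 hepatocyte markers, 161 CPM, against 31.95 and 21.1 CPM in the other 2 WT libraries. The 3 KO libraries had 14.96 to 54.2 CPM, with the highest sum in KO replicate 1. None of these 8 was at 0 in any bulk library, and their part in the chemokine values was not tested. Treml1 (ENSMUSG00000023993) had 3.76, 3.62 and 3.40 CPM in KO libraries, against 4.02, 2.18 and 3.91 CPM in WT libraries, and did not pass the test (0.10, SE 0.24).

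**Figure D1:**
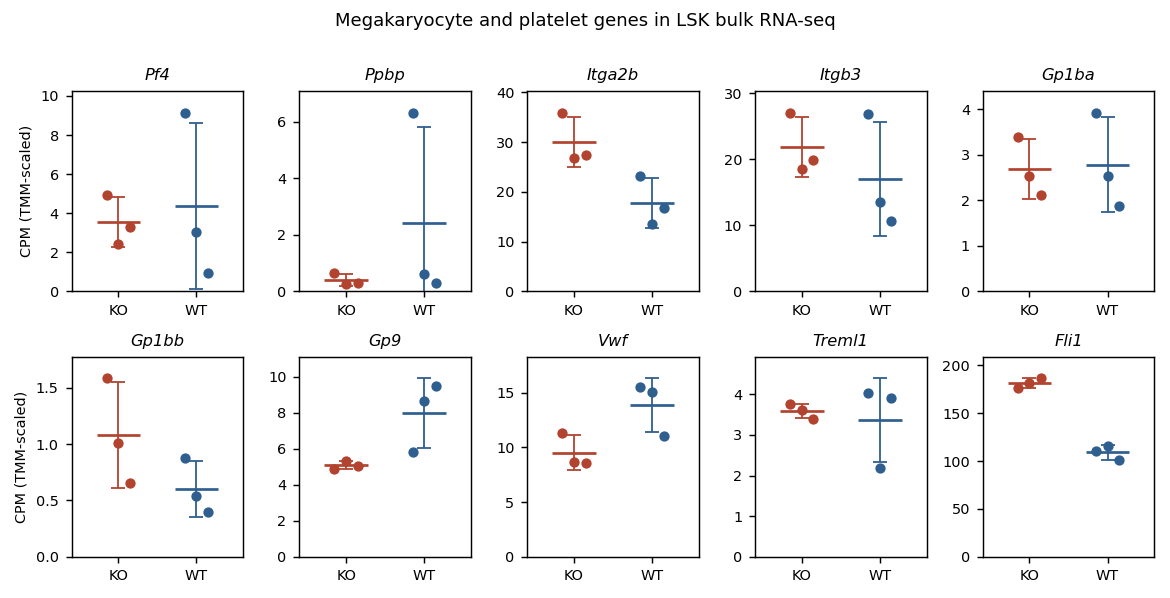
Level of each of the 10 genes in LSK bulk RNA (vertical axis, TMM-scaled CPM from 0) in 3 KO and 3 WT libraries; points are libraries, horizontal lines group means and bars ± SD. Fli1 and Itga2b sit higher in KO without overlap, Gp9 lower, and WT replicate 1 (leftmost WT point) stands high for Pf4 and Ppbp.

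Among 75 other megakaryocyte genes, 71 were tested in bulk RNA, and 6 rose and 28 fell in KO cells, with a median log2 fold change of -0.16, beside 21.6% higher and 22.6% lower over all genes. The fatty acid receptor Cd36 fell by 1.71, the thromboxane receptor Tbxa2r by 1.66, the ADP receptor P2ry12 by 1.27 and the thromboxane synthase Tbxas1 by 1.26 on the log2 scale. The growth factor genes Pdgfa and Pdgfb fell by 1.13 and 0.87, and the matrix protein gene Sparc by 0.98. Gp5, the remaining subunit of the von Willebrand receptor, rose to 10.25 ± 2.02 CPM in KO against 3.79 ± 0.674 CPM in WT (SD, n = 3 each), a log2 fold change of 1.44 (SE 0.19, edgeR adjusted p 0.000385). The thrombin receptor F2rl2 rose by 1.03 and Nfe2, a transcription factor needed for platelet release in mice, by 0.84.

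The stem cell regulator Mecom fell to 21.1 ± 5.19 CPM in KO, against 44.5 ± 8.32 CPM in WT (SD, n = 3 each; log2 fold change -1.08, edgeR adjusted p 0.0021). It stands on the stem cell marker list above as well. Gata1, the GATA factor of red cells and megakaryocytes, fell by 0.32 (SE 0.11, edgeR adjusted p 0.041). Its partner Zfpm1 (0.22), Gfi1b (-0.07), Runx1 (-0.16) and Tal1 (0.03) did not pass the test, and Thpo, the gene of thrombopoietin, had 1 count in 1 KO library and none in the others. By role, 2 regulators rose and 6 fell of 15, 3 surface receptors rose and 5 fell of 17 tested, and 6 granule genes fell and none rose of 15. Of thrombopoietin signalling genes 3 of 6 tested fell, of cytoskeletal genes 3 of 6, and of signalling genes 1 rose and 5 fell of 12. Over all genes tested 21.6% were higher and 22.6% lower.

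H3K4me3, a histone mark of active gene starts, asked whether the starts of these genes were marked differently in LSK cells. None of the 10 genes was called lower in KO cells. The fibrinogen receptor chains Itga2b and Itgb3 and a start inside Vwf carried more of the mark there. These are 3 of 10 genes called higher, beside 3.22% higher and 4.66% lower (7.88% in all) of the 51039 genes tested at their strongest start. The comparison has a shifted centre: over the 15960 starts with a mean of at least 16 CPM, here called marked, the median log2 fold change was 0.31, and 7 of the 10 genes, the 3 called ones included, belong to these. Of the marked starts 5.7% were called higher and 0.351% lower.

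At Itga2b the strongest window, at chr11:102469883 (minus strand, GRCm38.p5), had 40.7 and 43.1 CPM in KO, against 29.99 and 26.8 CPM in WT. Its log2 fold change was 0.56 (SE 0.18, edgeR adjusted p 0.0361), and this start lies directly after the Itga2b promoter printed above. Itgb3, at chr11:104608000, had 48.1 and 57.2 CPM in KO, against 36.6 and 32.7 CPM in WT (0.60, SE 0.20, edgeR adjusted p 0.0349). For both genes each KO library lay above each WT library.

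Vwf has 10 distinct starts in the deposited table, and the strongest was that of the noncoding transcript Vwf-206 at chr6:125603550, inside the gene. It had 25.0 and 25.0 CPM in KO, against 18.03 and 16.4 CPM in WT (0.54, SE 0.17, edgeR adjusted p 0.0255). The start of the coding transcript Vwf-201 at chr6:125546774 had 9.97 and 10.2 CPM in KO and 7.39 and 7.69 CPM in WT, and did not pass the test over every distinct window (0.29, SE 0.21, edgeR adjusted p 0.302). In that fit Vwf-204, another noncoding transcript, was lower in KO (-0.50, adjusted p 0.014). The internal mark of Vwf was thus higher in KO while Vwf RNA was lower in the bulk comparison; the difference between the assays was not tested.

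Fli1, at chr9:32541595, had 136 and 119 CPM in KO, against 95.4 and 69.4 CPM in WT. Its groups did not overlap and its log2 fold change of 0.63 (SE 0.26) was the largest of the 10 genes in this comparison, but its edgeR adjusted p of 0.0948 did not pass. Without WT replicate 1 it did (0.90, edgeR adjusted p 0.0407), and both Fli1 starts passed when every distinct window was tested (adjusted p 0.0185 and 0.0148). Gp1ba had 29.5 and 29.2 CPM in KO and 25.6 and 26.9 CPM in WT, Gp1bb 19.1 and 19.4 CPM in KO and 20.04 and 20.3 CPM in WT, and neither passed the test (0.16 and -0.07). Gp9, which has the start of Gm43904 within 3 kb of its own, had 25.2 and 26.9 CPM in KO, against 29.99 and 22.7 CPM in WT. Pf4 (11.2 and 12.4 CPM in KO, 11.4 and 12.5 CPM in WT), Treml1 (9.81 and 10.3 CPM in KO, 11.6 and 10.4 CPM in WT) and Ppbp (2.86 and 4.08 CPM in KO, 3.73 and 4.73 CPM in WT) stayed under the marked level. Among marked starts alone, scaled anew, Fli1 was the only one of the 10 genes called higher (0.33, edgeR adjusted p 0.0454), and Itga2b, Itgb3 and Vwf were not (0.26, 0.31 and 0.23). The 3 calls were also lost without KO replicate 1 or WT replicate 2 (adjusted p 0.0608 to 0.185), and Itgb3 without KO replicate 2 (0.0945).

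**Figure D2:**
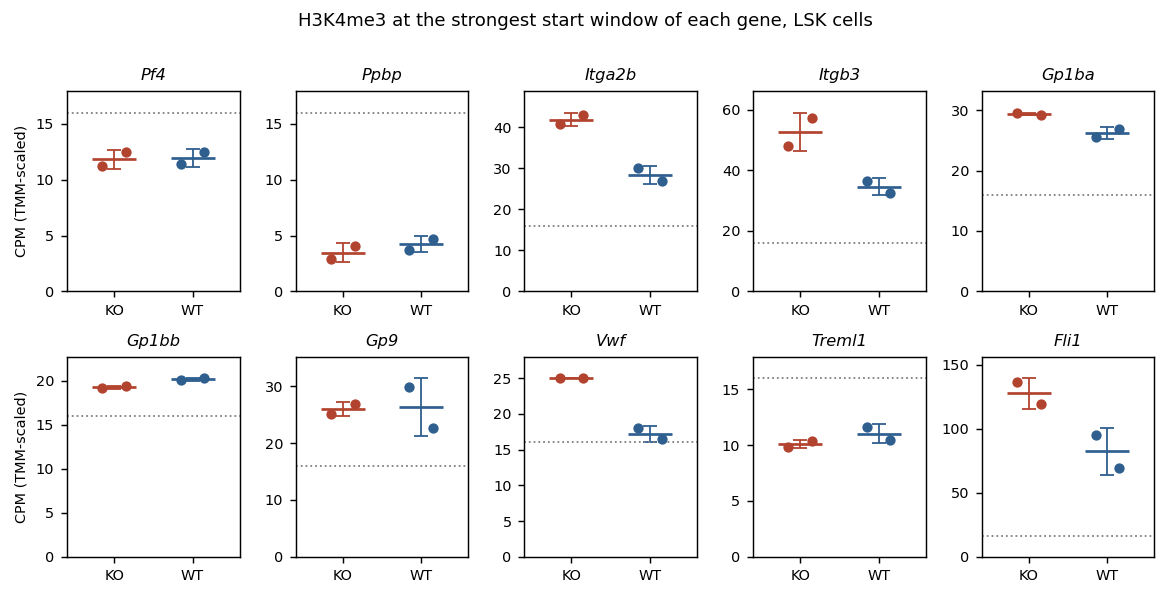
H3K4me3 counts in the strongest start window of each gene in LSK cells (vertical axis, TMM-scaled CPM from 0) in 2 KO and 2 WT libraries; points are libraries, lines means, bars ± SD, and the dotted line marks 16 CPM. Itga2b, Itgb3, Vwf, Fli1 and Gp1ba sit higher in KO without overlap, and Gp1bb and Treml1 lower. The share of all genes that separate in this way was not computed. Pf4, Ppbp and Treml1 stay under the dotted line.

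Of the 75 other megakaryocyte genes 8 were called higher and 1 lower for H3K4me3, beside 3.22% and 4.66% of all genes and 5.7% and 0.351% of marked starts. The adhesion receptor Selp was higher by 1.18, the granule proteins Clu, Thbs1 and F5 by 0.99, 0.97 and 0.80, and F2rl2 by 0.85. The adaptor Fyb (0.69), the receptor chain Fcer1g (0.63) and the tetraspanin Cd9 (0.62) were also higher, and Tbxa2r was lower (-0.49). F2rl2 and Tbxa2r were called in the same direction in bulk RNA, and Fyb in the opposite one (-0.47). The median over the 75 genes was 0.36, beside the 0.31 of all marked starts. Thpo (0.47), Gata1 (0.24), Nfe2 (0.30), Gfi1b (0.16), Runx1 (0.50), Tal1 (0.29) and Zfpm1 (0.35) were not called.

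Whole-liver total RNA holds the mature cells that the LSK sort leaves out. Fli1 was the only one of the 10 genes called in INPUT, higher in the libraries labelled KO, and Gp1bb differed by a larger fold without passing the test. This is 1 of 10 genes called higher, beside 0.614% higher and 0.566% lower (1.18% in all) of the 14657 genes tested. The median log2 fold change of the 10 genes was 0.42 and that of the 75 other megakaryocyte genes 0.34, against 0.02 over all genes.

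Fli1 had 93.5 and 74.9 CPM in INPUT libraries labelled KO, against 15.1 and 17.2 CPM in WT. The groups lay far apart, with a log2 fold change of 2.39 (SE 0.28, edgeR adjusted p 0.00306). Gp1bb had 40.7 and 33.6 CPM in libraries labelled KO, against 3.86 and 3.27 CPM in WT (164 and 110 counts, against 10 and 8). Its log2 fold change was 3.37 (SE 0.95, edgeR adjusted p 0.106); DESeq2 called it (adjusted p 0.00516), and so did edgeR without a filter on low counts (0.0126). Gp1bb overlaps Septin5 (Sept5 in these tables) in the RefSeq annotation, and strand use in the counting is not stated, so reads of the pair may be shared. Sept5 had 2.23 and 2.75 CPM in libraries labelled KO, against 6.57 and 1.64 CPM in WT, so that its groups overlapped. The Fli1 call was lost without KO replicate 1 or 2 or with INPUT libraries fitted alone (adjusted p 0.128, 0.0924 and 0.0694), while its fold change stayed between 2.21 and 2.66 in all 10 alternative fits.

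Pf4 had 206 and 200 CPM in libraries labelled KO, against 108 and 98.9 CPM in WT, without overlap, but its log2 fold change of 0.97 (SE 0.34) did not pass (edgeR adjusted p 0.179). Its neighbour Ppbp had 43.9 and 34.9 CPM in libraries labelled KO, against 49.8 and 31.9 CPM in WT, which overlapped (-0.05, SE 0.52). Itga2b had 79.9 and 122 CPM in libraries labelled KO, against 55.6 and 83.4 CPM in WT, which overlapped. Itgb3 had 139 and 122 CPM in libraries labelled KO, against 104 and 107 CPM in WT, without overlap. Neither passed (0.54 and 0.31). Gp1ba (70.2 and 57.2 CPM in libraries labelled KO, 42.5 and 67.0 CPM in WT), Gp9 (26.1 and 11.6 CPM in libraries labelled KO, 12.75 and 21.25 CPM in WT) and Treml1 (8.44 and 22.9 CPM in libraries labelled KO, 13.1 and 4.09 CPM in WT) overlapped between genotypes. Vwf had 67.7 and 60.25 CPM in libraries labelled KO and 68.8 and 76.4 CPM in WT, lower without overlap and not called (-0.18, SE 0.29).

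Of the other megakaryocyte genes only Plek, the main protein kinase C substrate of platelets, was called in INPUT, with 64.5 and 106 CPM in libraries labelled KO and 34.4 and 33.9 CPM in WT (1.32, SE 0.28, edgeR adjusted p 0.0484). Thpo had 9.43 and 6.42 CPM in libraries labelled KO and 1.93 and 3.27 CPM in WT, and was not called (1.6005, SE 1.08, edgeR adjusted p 0.475). Gata1 (-0.98), Nfe2 (0.56), Gfi1b (0.45), Runx1 (-0.16), Tal1 (-0.33) and Zfpm1 (-0.0045) were not called either. Hepatocyte markers moved in the same comparison, with 3 of 8 higher and sums of 19670 and 20670 CPM in libraries labelled KO, against 9966 and 13260 CPM in WT, and none at 0. Erythroid markers had 3 of 10 lower, with sums of 17310 and 15080 CPM in libraries labelled KO and 15170 and 18470 CPM in WT, and Car1 at 0 in both KO libraries. Granulocyte progenitor markers had 2 of 8 higher, with sums of 1648 and 1749 CPM in libraries labelled KO and 1083 and 1014 CPM in WT, and Ms4a3 at 0 in both WT libraries. Mature neutrophil markers, none called, summed to 349 and 390 CPM in libraries labelled KO and 114 and 179.8 CPM in WT. Monocyte and macrophage markers had 1 of 10 higher, with sums of 514 and 557.5 CPM in libraries labelled KO and 223 and 241 CPM in WT. The part of these cells in the Fli1 and Pf4 values was not tested.

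**Figure D3:**
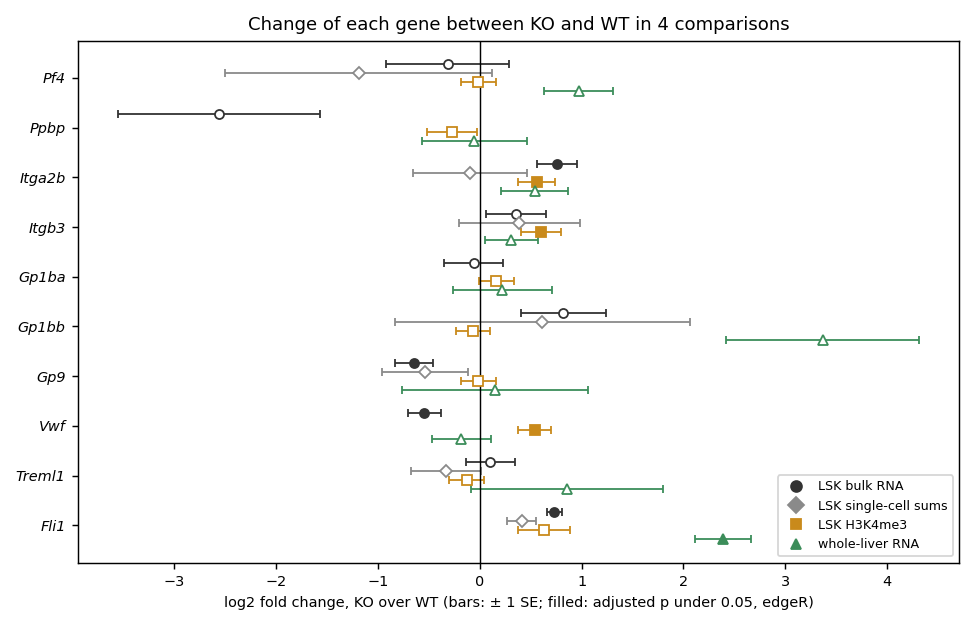
Log2 fold change of each gene, KO over WT (horizontal axis), in LSK bulk RNA, LSK single-cell sums, LSK H3K4me3 and whole-liver RNA; bars are ± 1 SE and filled symbols passed an adjusted p under 0.05 by edgeR. Fli1 lies right of 0 in all 4 comparisons, while Vwf lies left of 0 in bulk RNA and right of 0 for H3K4me3.

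The J2 pull-down asked how much of each transcript was bound relative to INPUT, and whether that differed between genotypes. In both genotypes Fli1 RNA was enriched in the pull-down and most of the other genes were depleted from it. In livers labelled KO 1 of 10 genes was higher and 6 were lower in J2 than in INPUT, beside 15.3% higher and 15.1% lower (30.4% in all) of the 14657 genes tested. In WT livers also 1 was higher and 6 were lower, beside 13.2% higher and 10.7% lower (23.9% in all). The medians of the 10 genes were -2.18 in livers labelled KO and -1.95 in WT livers, against 0.04 and 0.10 over all genes. In the same order they were -2.92 and -2.66 for hepatocyte markers, -2.75 and -2.75 for mature neutrophil and -2.39 and -1.04 for granulocyte progenitor markers. Depletion was thus not particular to the 10 genes. Marker lists above 0 were stem and multipotent (0.17 and 0.43) and, in WT livers alone, lymphoid (2.48) and mast cell and basophil (0.11). The lymphoid median rests on 3 tested genes of 10, none called, and that of mast cells and basophils on 3 of 8. The lymphoid list summed to 3.09 and 5.31 CPM in WT INPUT, with 6 and 7 of its genes at 0. That median lies near the floor of the counts and is not read as enrichment. Each contrast uses the INPUT libraries of the genotype comparison above, so they are not independent of it.

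Fli1 had 214 and 217 CPM in J2 and 93.5 and 74.9 CPM in INPUT of livers labelled KO, a log2 ratio of 1.35 (SE 0.25, edgeR adjusted p 0.00165). In WT livers it had 60.8 and 46.6 CPM in J2 and 15.1 and 17.2 CPM in INPUT, a ratio of 1.74 (SE 0.27, adjusted p 0.00086). The pull-down of each KO liver thus held more Fli1 RNA than that of each WT liver, as did its INPUT, and the enrichments differed by -0.38 (KO minus WT, SE 0.36, edgeR adjusted p 0.787). Without KO replicate 2 the Fli1 enrichment in livers labelled KO was 1.22 and no longer called (adjusted p 0.117). Itgb3 did not pass the test in either genotype, with 105 and 135 CPM in J2 against 139 and 122 CPM in INPUT of livers labelled KO (-0.12, SE 0.26), and 136 and 87.9 CPM in J2 against 104 and 107 CPM in INPUT of WT livers (0.09, SE 0.26).

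Its partner Itga2b was lower in J2, with 17.6 and 18.02 CPM in J2 against 79.9 and 122 CPM in INPUT of livers labelled KO (-2.50, SE 0.35) and 19.1 and 16.4 CPM in J2 against 55.6 and 83.4 CPM in INPUT of WT livers (-1.97, SE 0.35). Pf4 had 26.6 and 11.7 CPM in J2 against 206 and 200 CPM in INPUT of livers labelled KO (-3.40, SE 0.37), and 18.2 and 13.85 CPM in J2 against 108 and 98.9 CPM in INPUT of WT livers (-2.69, SE 0.37). Gp1ba was lower as well (-2.97, SE 0.53, in livers labelled KO and -2.89, SE 0.54, in WT livers), and so was Vwf (-1.39, SE 0.29, and -0.93, SE 0.29). All 8 of these contrasts were called by edgeR, but Gp1ba was lost in livers labelled KO without KO replicate 1 (adjusted p 0.0793), and Vwf was lost there without either KO replicate (0.153 and 0.0985). The Vwf call in WT livers was lost without any 1 of the 4 animals (edgeR adjusted p 0.101 to 0.213).

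Gp1bb was lower in J2 of livers labelled KO, with 3.10 and 2.47 CPM against 40.7 and 33.6 CPM in INPUT (-3.72, SE 0.94, edgeR adjusted p 0.0107), and Gp9 with 1.47 and 3.00 CPM against 26.1 and 11.6 CPM (-3.06, SE 1.00, adjusted p 0.0381). Neither passed in WT livers, where Gp1bb had 8 and 0 counts in J2 and Gp9 1.11 and 11.1 CPM. Both calls were lost without either KO replicate (edgeR adjusted p 0.14 to 0.49). Ppbp passed in WT livers (-2.30, SE 0.55, edgeR adjusted p 0.0108) and not in livers labelled KO (-1.41, SE 0.53, adjusted p 0.0631). Treml1 was called lower in WT livers (edgeR adjusted p 0.00808), with 1 and 0 counts in J2 against 34 and 10 in INPUT, a ratio of pooled scaled counts of 0.0135 with an exact 95% interval of 0.000334 to 0.0793, which covers counting error only. In livers labelled KO the same ratio for Treml1 was 0.290 (0.204 to 0.408).

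None of the 10 genes differed between genotypes in its J2 enrichment: edgeR called 0 of 14657 genes, with 1340 at an unadjusted p under 0.05, and DESeq2 called 68 genes, none of the 10. The largest difference, that of Treml1, had an unadjusted p of 0.0301 and an adjusted p of 0.513. With the animal as a block, which pairs the 2 parts of a liver, Ppbp was also called lower in livers labelled KO (-1.42, edgeR adjusted p 0.0376) and Vwf was no longer called in WT livers (-0.93, adjusted p 0.063).

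Among the 75 other megakaryocyte genes, 14 were higher and 21 lower in J2 of livers labelled KO, and 9 higher and 14 lower in J2 of WT livers. Over all genes 15.3% were higher and 15.1% lower in livers labelled KO, and 13.2% and 10.7% in WT livers. Of 7 cytoskeletal genes 6 were lower in each genotype. The myosin light chain gene Myl9 was at -2.55 in livers labelled KO and -3.02 in WT livers, the myosin heavy chain gene Myh9 at -2.08 and -1.16, and the integrin activator Fermt3 at -2.44 and -1.51. The collagen receptor chain Itga2 was higher in J2 in both (2.41 in livers labelled KO and 1.56 in WT livers), as were Runx1 (1.28 and 0.96) and Tal1 (1.08 and 0.87), while Gata1 was lower in both (-1.37 and -0.90). The adaptor Lat (-4.13), the tetraspanin Cd9 (-3.33) and Gp5 (-3.23) were among the lowest called in livers labelled KO, and Cd226 (3.86) and Rgs18 (2.45) among the highest. In WT livers Plek was among the highest called (2.04), and Cd9 was lower there too (-2.11). None of these called genes was tested against the rest as a list.

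**Figure D4:**
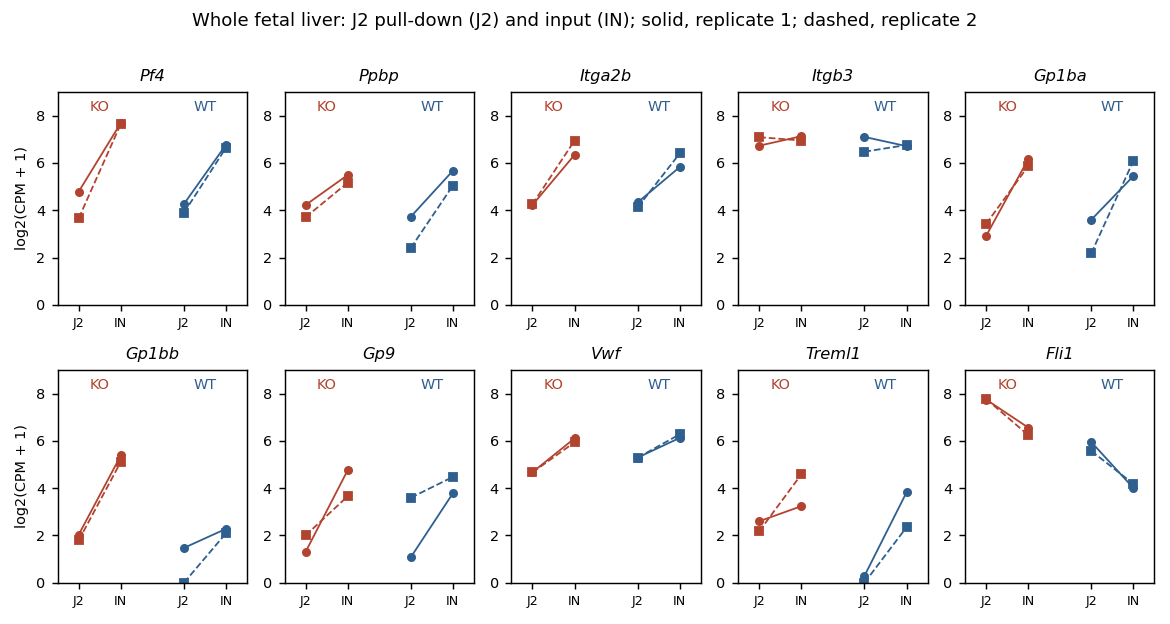
Level of each gene in the J2 pull-down (J2) and the input (IN) of the same whole livers (vertical axis, log2 of CPM + 1), KO left and WT right; solid lines with circles are replicate 1 and dashed lines with squares replicate 2. Lines rise from J2 to input for most genes, run in no common direction for Itgb3 and fall for Fli1.

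In single LSK cells the 8 genes with a row were Fli1, which had counts in the most cells of each library, and 7 others whose counts sat in fewer cells. Summed over the 15678 cells kept, none of the 7 genes that could be tested was called between genotypes by edgeR. The background was as empty: 1 of 13374 genes (0.00748%) was called, with 1932 at an unadjusted p under 0.05, while DESeq2 called 827 genes. Vwf was left out by the filter, with 12 counts in WT replicate 2 and listed at 0 in the other 3 libraries. Every gene with counts in a library had them in at least 10 of its cells, and none in 1 to 9 cells, so a listed 0 allows up to 9 cells. The libraries shared 8 cell barcodes.

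Fli1 had 83.3 and 91.7 CPM in the libraries labelled KO, against 62.3 and 69.2 CPM in WT. The groups did not overlap, and the log2 fold change was 0.41 (SE 0.14, unadjusted p 0.0321, edgeR adjusted p 0.302). Counts of Fli1 were seen in 12.9% and 20.3% of cells of the libraries labelled KO and in 12.7% and 12.3% of WT cells. When the cells were grouped into 9 clusters by their other genes, the share in cluster 2, led by erythroid genes, was 6.09% (exact 95% interval 4.74 to 7.69, median depths of 1834 to 3760.5 counts), and in cluster 7, led by neutrophil genes, 15.7% (11.6 to 20.4). In the deeper cluster 0 (median depths of 4541 to 6410 counts) it was 48.7% (45.6 to 51.8). Of the 44 cells of cluster 7 with a Fli1 count, 35 were among the 175 of KO replicate 1. The others were 2 of 15 in KO replicate 2 and 3 of 56 and 4 of 35 in WT. The interval of cluster 7 holds all 4 library shares, but the cluster is mostly 1 library and cannot serve as their reference. No cluster here is known to lack Fli1, so the shares are not read as expression per cell. Depth differed, with medians of 1478.5 and 2134.5 counts per cell in the libraries labelled KO and 2099 and 1560 in WT. Thinned to 1000 counts per cell, which left out 847 and 685 cells of the libraries labelled KO and 268 and 752 WT cells, the shares were 7.51% (exact 95% interval 6.72 to 8.37) and 7.72% (6.82 to 8.70), against 4.99% (4.17 to 5.93) and 6.46% (5.65 to 7.34) in WT.

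Pf4 had 48.8 and 15.3 CPM in the libraries labelled KO, against 140 and 6.14 CPM in WT. Its WT values spanned those of both KO libraries, and 313 of the 959 Pf4 counts of WT replicate 1 came from a single cell and 86.7% from 10 cells. Cells with exactly 1 Pf4 count made up 98 of 128 and 78 of 91 positive cells in the libraries labelled KO, and 96 of 113 and 37 of 40 in WT. The share of cells with a Pf4 count was 2.60% and 2.34% in the libraries labelled KO and 4.14% and 0.966% in WT. In cluster 7, whose 281 cells are led by the neutrophil genes S100a8, S100a9 and Camp, it was 2.85% (8 cells, exact 95% interval 1.24 to 5.53), with median depths of 1606 to 2564 counts per cell. All 8 of these cells were among the 175 of KO replicate 1, and none among the 15 of KO replicate 2 or the 56 and 35 of WT. The background of cells with 1 Pf4 count was therefore not settled, and no order is read from the shares.

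Itga2b had 7.55 and 5.13 CPM in the libraries labelled KO, against 10.4 and 3.36 CPM in WT, and Itgb3 2.66 and 2.23 CPM, against 2.48 and 1.275 CPM in WT. Both were seen in under 100 cells of every library, mostly as 1 count. Gp1bb had 4.47 and 1.65 CPM in the libraries labelled KO and 4.09 CPM in WT replicate 1, and was listed at 0 in WT replicate 2. Gp9 was spread more widely, in 85 and 244 cells of the libraries labelled KO and 122 and 214 WT cells, of which 77, 205, 103 and 194 held 1 count. It had 9.997 and 24.2 CPM in the libraries labelled KO, against 22.6 and 27.2 CPM in WT (-0.54, SE 0.42, edgeR adjusted p 0.624). Treml1 had 3.51 and 3.06 CPM in the libraries labelled KO, against 4.96 and 3.36 CPM in WT. None of the 65 other megakaryocyte genes tested in single-cell sums was called by edgeR, Nfe2 (0.60), Gata1 (0.09), Gfi1b (-0.09), Runx1 (0.04), Tal1 (0.24) and Zfpm1 (0.87) among them.

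Cells that held counts of 3 or more of these genes other than Fli1 were rare. There were 40, namely 11 and 11 in the libraries labelled KO and 14 and 4 in WT. Gp1bb was listed at 0 in WT replicate 2, and Vwf in WT replicate 1 and both KO libraries. Depth differed as well, so these numbers are not compared between libraries. These 40 cells held 44.2% and 44.9% of the Pf4 counts of the libraries labelled KO and 87.3% and 28.3% of those of WT. They were deeper than cells with none of these genes, with medians of 2193 and 5843 counts in the libraries labelled KO and 5597 and 2512.5 in WT, against 1457, 2049.5, 2045 and 1533 for cells without, in the same order. The cells were chosen by their counts of these genes, so a greater depth and a large share of Pf4 counts follow in part from the choice. What follows is likewise a description with no test. The other megakaryocyte genes summed to 9204 CPM in the 40 cells and 3153 CPM in all other cells. Of 68 such genes 58 were higher in the 40 cells, 5 were lower (F13a1, Sh2b3, Stat5b, Flna and Plcg2) and 5 were at 0 there (Cd36, Mecom, Pdgfa, Pdgfb and Sparc). The share of all genes higher in the 40 cells was not computed, so whether this count is unusual is not known. The genes that follow were chosen for their excess after the values were seen. Rap1b, the small GTPase of integrin activation, was at 1663 and 186 CPM, the granule-docking gene Rab27b at 249 and 4.94 CPM, and Cavin2 at 228 and 5.68 CPM. The receptors F2rl2 (122 and 0.93 CPM), Clec1b (79.4 and 0.52 CPM) and Gp5 (53.0 and 1.37 CPM) had the same order. Erythroid markers summed to 297 CPM in the 40 cells and 554 CPM in the others, lymphoid markers to 90.0 and 265 CPM, and mast cell and basophil markers to 159 and 64.5 CPM. Stem and multipotent markers were also higher (450 and 312 CPM), as were the sparse stromal (5.30 and 3.06 CPM) and hepatocyte lists (21.2 and 14.3 CPM). Granulocyte progenitor (1499 and 1978 CPM), mature neutrophil (154 and 499 CPM) and monocyte and macrophage markers (21.2 and 96.0 CPM) were lower. So were dendritic (450 and 791 CPM) and endothelial markers (233 and 270 CPM).

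The cells were clustered without the 10 genes, the other megakaryocyte genes and the genes called in bulk RNA, which gave 9 clusters. Mitochondrial transcripts and ribosomal protein genes were left out as well. Of the 40 cells the number per cluster was 12 in the largest case, cluster 0, and 1 in the smallest. The megakaryocyte genes that could bring such cells together were left out, so this spread cannot show whether they form a group. Cluster 0 was also the deepest, with median depths of 4541 to 6410 counts per cell. Pooled over libraries, the genes other than Fli1 had their highest summed level, 162 CPM, in cluster 4, led by Klf2, Egr1 and Igll1. That cluster was made up mostly of WT replicate 1, and 1 cell of this library held 313 of the cluster's 528 Pf4 counts. Pf4 made up 122 of the 162 CPM of cluster 4, and cluster 8 came next, at 102 CPM. Without the Pf4 counts of this 1 cell, cluster 4 would lie below cluster 8. The rank of cluster 4 thus rests on that cell. At clustering resolutions of 0.5 and 1.5 the highest level became 137 and 765 CPM. Within libraries, among clusters of at least 50 cells, the highest was cluster 1 in KO replicate 1 (148 CPM), cluster 6 in KO replicate 2 (75.2 CPM), cluster 1 in WT replicate 1 (389 CPM) and cluster 5 in WT replicate 2 (58.5 CPM). Fli1 was highest in cluster 0, led by Ckap5, Sptbn1 and Angpt1, at 129 CPM, and lowest in cluster 2, led by the erythroid genes Hbb-bs, Hba-a1 and Klf1, at 21.2 CPM. That order held in each of the 4 libraries, with 131 to 155 CPM in the libraries labelled KO and 105 to 150 CPM in WT for cluster 0, and 20.5 to 30.3 CPM and 9.36 to 14.53 CPM for cluster 2. In 5 of the 6 clusters with at least 50 cells in every library both KO libraries had more Fli1 than both WT libraries. These clusters split the same 4 libraries, so they are not independent of the difference in the sums above. Counts were few in some, with 53 and 6 in the libraries labelled KO and 11 and 4 in WT for cluster 2. The share of all genes with this pattern was not computed.

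Over 32 sums per cluster and library, the genes whose log2 level tracked the summed level of the 8 genes with a row most closely were Appl2 and Rap1b (Pearson r 0.78 each), Dpp4, Slc39a6, Gm26735, Arl4c, Tuba1a, Pim1, Trio and Bmt2 (0.73 to 0.76), out of 8523 genes compared. The sums share libraries and depth, and the values are a description.

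**Figure D5:**
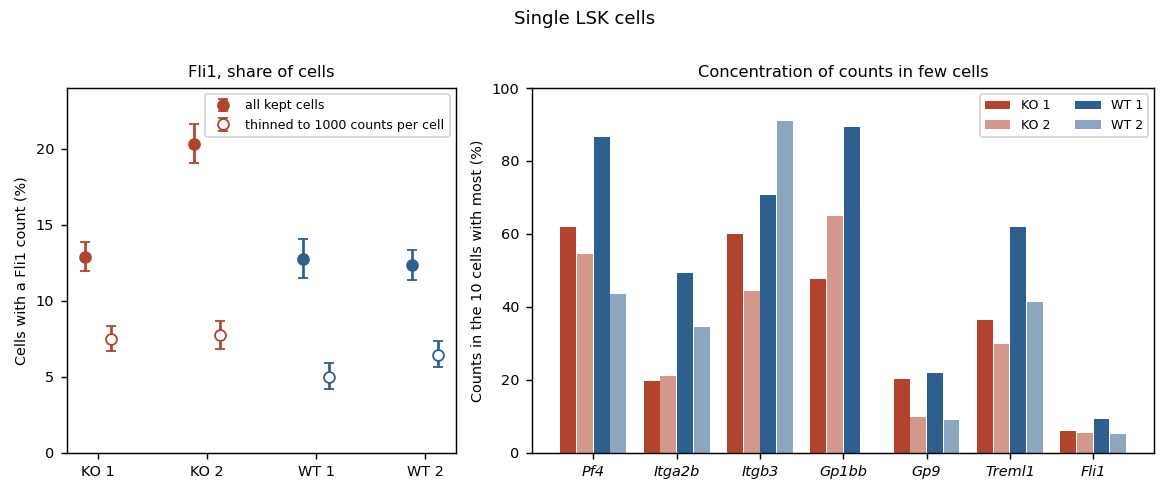
Left, share of cells with a Fli1 count (vertical axis, %) in the 4 single-cell libraries, filled for all kept cells and open after thinning to 1000 counts per cell, with exact 95% intervals. Right, share of each gene's counts that lay in the 10 cells with most (vertical axis, %), by library; Gp1bb has no bar for WT 2, where it is listed at 0, and Pf4 in WT 1 reaches 86.7%.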

How the data were processed

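The authors deposited whole-number counts per gene for bulk, INPUT and J2 libraries, counts per transcript-start window of 3 kb for H3K4me3, and counts per gene and cell for single cells. Per the submitters' processing notes, the build was GRCm38.p5; they name Seurat 3.0, STAR 2.5.3a, edgeR, Picard 2.9.0, bedtools and Bowtie2 2.2.9, with no order. The counting tool, strand setting and handling of duplicates are not given in the sources used here, nor whether 3 kb is the whole window.

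Counts were tested with edgeR 4.0.16 in R 4.3.3 (filterByExpr, TMM scaling, quasi-likelihood F-test, Benjamini-Hochberg adjustment over all features, called at an adjusted p under 0.05), with 1 fit over the 8 INPUT and J2 libraries; DESeq2 1.42.0, other scalings, no filter, a replicate block and leaving out each library were alternatives. SE is the log2 fold change divided by the square root of F. For H3K4me3 the strongest of a gene's distinct windows was tested. Of 15707 cells, the 15678 that had 500 counts or more and a mitochondrial share under 20% were clustered with scanpy 1.11.5 (Python 3.11.15; 2000 variable genes, 30 components, 15 neighbours, resolution 1). Doublets were not called. Intervals are exact binomial and cover counting error only. The fits were tested on simulated data.

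The text names the 10 genes and, of the 75 others, called genes with the largest absolute log2 fold changes plus fixed regulators; some genes of that rule are not reported here. The genes and lists were chosen with earlier results of these data known. Samples are labelled biological replicates, and p-values measure the spread between them. INPUT and J2 libraries of the same number come from 1 liver, per the labels' protocols; their deviations correlated by 0.012 in KO and 0.128 in WT.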

Additional observations from a re-analysis of the deposited data

How the results depend on the processing

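Over 647 refits of single genes, 543 kept direction and side of the threshold, 44 lost a call, 17 gained one and 43 changed sign, none of these 43 called in either fit; causes were not tested. Leaving out 1 library at a time, the number of the 10 genes called higher in bulk RNA was 1 to 3 and lower 0 to 2, higher for H3K4me3 0 to 4, higher in INPUT 0 to 1, and in J2 over INPUT of livers labelled KO higher 0 to 1 and lower 2 to 7. For H3K4me3, RLE scaling, DESeq2 and marked starts alone each left 1 gene higher, and testing every distinct window called 1 lower. In INPUT, DESeq2 and no filter on low counts each called 2 higher and INPUT libraries alone 0. The highest cluster level of 162 CPM became 137 CPM at a clustering resolution of 0.5 and 765 CPM at 1.5.

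Signs changed under these settings, as log2 fold changes. In H3K4me3 these were Pf4 at 0.099 (RLE size factors), Pf4 at 0.11 (DESeq2), Pf4 at 0.0006 (no filter on low counts), Gp1ba at -0.0864 (library size alone), Gp1ba at -0.15 (marked windows only), Gp1bb at 0.0485 (RLE size factors), Gp1bb at 0.0575 (DESeq2), Gp9 at 0.0941 (RLE size factors) and Gp9 at 0.10 (DESeq2). In INPUT these were Ppbp at 0.21 (library size alone) and Vwf at 0.0954 (library size alone). In J2 over INPUT in KO this was Itgb3 at 0.17 (library size alone). In the difference in J2 enrichment this was Gp1ba at 0.0123 (replicate block). In single-cell sums this was Itga2b at 0.0195 (replicate block). Leaving out 1 library changed the sign of others, over these lowest and highest values. In bulk RNA the ranges were Pf4 -0.73 to 0.77, Gp1ba -0.23 to 0.27 and Treml1 -0.12 to 0.28. In H3K4me3 the ranges were Pf4 -0.0611 to 0.0585 and Gp9 -0.20 to 0.22. In INPUT the ranges were Ppbp -0.34 to 0.26, Gp1ba -0.12 to 0.59, Gp9 -0.56 to 0.59 and Treml1 -0.042 to 1.88. In J2 over INPUT in KO the range was Itgb3 -0.38 to 0.18. In J2 over INPUT in WT the range was Itgb3 -0.31 to 0.41. In the difference in J2 enrichment the ranges were Itgb3 -0.51 to 0.23, Gp1ba -1.03 to 1.34, Gp1bb -2.60 to 3.15 and Gp9 -2.59 to 0.43. In single-cell sums the ranges were Pf4 -2.26 to 2.38, Itga2b -0.71 to 0.91, Itgb3 -0.0205 to 0.93 and Gp1bb -0.43 to 7.94.

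Among all features, H3K4me3 calls numbered 4024 (1644 higher and 2380 lower), against 788 by DESeq2 (752 and 36), 1305 and 3309 by library size alone, 1999 and 1993 by RLE, 659 with marked starts alone, 12979 over every distinct window and 1080 to 3858 without 1 library; the median log2 fold change was -0.15, and 0.37 by DESeq2, -0.40 by library size alone and -0.04 by RLE. INPUT calls numbered 173, against 819 by DESeq2, 798 with no filter, 329 by library size alone, 25 for INPUT alone and 8 to 408 without 1 library. J2 calls numbered 4462 in livers labelled KO (1630 to 5347 without 1 library) and 3503 in WT livers (2386 to 2685). The difference in J2 enrichment had 0 calls, against 3 by library size alone, 68 by DESeq2, 103 with no filter and 0 to 6 without 1 library. Single-cell sums had 1 call, against 827 by DESeq2, 11 with no filter and 0 without 1 library.

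Replicate numbers outside the J2 pairs are shared numbers only: same-numbered bulk libraries deviated together by r 0.23, 0.096 and 0.044, H3K4me3 by 0.30, single-cell by 0.26 and INPUT by -0.013. With a replicate block, calls numbered 7018 in bulk RNA (3 of the 10 genes higher and 3 lower), 20842 for H3K4me3, 167 in INPUT, 10 for the difference in J2 enrichment and 117 in single-cell sums. INPUT and J2 libraries held 3100910 to 5251496 counts; how far depth limits the INPUT calls was not tested.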
